A study of Mus musculus with 9 samples.

Results

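Metallothioneins and zinc transport were described here through 10 genes taken by symbol from 55416 genes counted by RNA sequencing of 4T1, a mouse line from a BALB/c mammary carcinoma. They are the metallothionein genes Mt1 and Mt2, the gene of the zinc-sensing transcription factor Mtf1, the zinc exporters Slc30a1, Slc30a5 and Slc30a7, and the zinc importers Slc39a1, Slc39a6, Slc39a10 and Slc39a14. All 10 were among the 13439 genes that passed the filter on low counts. The MRC+L cells had MRC nanoparticles for 12 h together with 3 min of irradiation at 660 nm, the MRC cells had the particles for 12 h without irradiation, and the PBS cells had fresh DMEM medium alone. The irradiance is printed as 180 per square centimetre, in mV in one label and in mW in another, and the labels do not spell out MRC. All 9 libraries, 3 per group, come from the same line grown in culture, and a group with light and no particles was not analysed here.

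Zinc in a cell is held by metallothioneins, small cysteine-rich proteins that bind zinc and copper, and is moved by 2 families of transporters. Proteins of the SLC30 (ZNT) family carry zinc out of the cytosol, across the plasma membrane or into organelles, and proteins of the SLC39 (ZIP) family carry it into the cytosol. When free zinc or cadmium rises, MTF1 binds metal response elements near gene starts and switches on Mt1, Mt2 and Slc30a1, and metallothionein genes are also known to respond to oxidants and glucocorticoids.

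The promoters of the genes with the largest changes are shown first, because metal response elements are the sites at which MTF1 acts. These genes are also the known targets named above, so their core counts are no test of MTF1. The part of MTF1 in the changes was not tested. The windows run from 250 bases before to 50 after the start given by RefSeq on GRCm38.p6, of the C57BL/6J reference, and the start used in 4T1 cells was not measured. Capitals mark the core of the metal response element, TGCACNC or TGCGCNC on either strand, and no marked cores overlap. The Mt1 window is chr8:94178839-94179138, the Mt2 window chr8:94172368-94172667 and the Slc30a1 window chr1:191906531-191906830, all on the + strand.
Mt1: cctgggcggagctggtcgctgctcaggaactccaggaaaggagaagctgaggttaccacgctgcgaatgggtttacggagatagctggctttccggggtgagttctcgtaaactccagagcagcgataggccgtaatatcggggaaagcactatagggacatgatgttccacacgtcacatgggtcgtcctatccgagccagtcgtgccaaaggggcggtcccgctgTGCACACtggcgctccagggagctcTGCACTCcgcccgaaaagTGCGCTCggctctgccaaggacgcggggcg
Mt2: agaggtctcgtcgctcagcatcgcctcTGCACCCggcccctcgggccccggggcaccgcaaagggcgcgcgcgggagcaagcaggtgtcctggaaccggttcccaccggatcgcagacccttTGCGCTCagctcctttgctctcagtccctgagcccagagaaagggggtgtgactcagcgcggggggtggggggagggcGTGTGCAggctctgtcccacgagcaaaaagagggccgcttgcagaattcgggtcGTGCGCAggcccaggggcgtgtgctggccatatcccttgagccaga
Slc30a1: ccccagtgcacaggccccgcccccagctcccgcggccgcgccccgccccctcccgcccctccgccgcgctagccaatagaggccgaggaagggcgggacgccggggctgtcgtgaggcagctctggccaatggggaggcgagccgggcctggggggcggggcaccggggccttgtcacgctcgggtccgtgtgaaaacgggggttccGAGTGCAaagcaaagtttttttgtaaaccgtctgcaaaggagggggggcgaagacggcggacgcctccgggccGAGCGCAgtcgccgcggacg
The Mt2 window held 4 cores, the Mt1 window 3 and the Slc30a1 window 2. Of 32841 promoters of this length, 25.7% held at least 1 core, 7.12% at least 2, 1.97% at least 3 and 0.518% at least 4. A promoter was listed for 8 of the 10 genes: Slc30a5 held 1 core, and the windows of Mtf1, Slc30a7, Slc39a1 and Slc39a10 held none of these letters. The core of the antioxidant response element, TGACNNNGC on either strand, was in the windows of Mt2, Slc30a1, Slc30a5 and Slc39a1, 1 each, and in 12.4% of all promoters. In Mt2 it lay at positions -79 to -71 from the start and in Slc30a1 at -82 to -74, apart from the marked cores. Bases outside the windows were not searched, so a gene without a core here may have one nearby.

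Library totals lay between 15019765 and 20044166 counts, so that 3 counts, the limit that a count of 0 allows, correspond to 0.15 to 0.2 CPM (counts scaled to a library total of 1000000), which covers counting error only. Levels below are CPM after scaling by edgeR's TMM factors, log2 fold changes are given ± their standard error, and adjusted p-values come from edgeR's quasi-likelihood test, adjusted over all 13439 genes. The labels do not say that libraries came from separate cultures, so the p-values reflect only how much these samples differ, and that spread may be technical. PBS replicate 2 stood apart from the other libraries. Its shortest 10% of genes lay 0.92 log2 units above its longest 10%, taking the mean over libraries as 0, and for the other 8 the difference was between -0.249 and 0.0843. The biological coefficient of variation was 0.172 over all 9 libraries and 0.0822 without it, and each result below is given with and without that library where it matters. Of 7 epithelial markers, 4 had at least 10 counts in every library, whereas Epcam had 0 to 5 and Cldn7 0 to 6 counts. The summed epithelial level was 523 to 541 CPM, without TMM factors, in MRC+L, 583 to 627 in MRC and 1012 to 1718 in PBS. Krt8 and Krt18 fell in both exposures and Cdh1 in MRC+L, whereas Cldn3 rose, 1.67-fold in MRC+L (adjusted p = 0.0263) and 1.74-fold in MRC (adjusted p = 0.0224). Of 4 fibroblast markers Dcn and Lum had 0 or 1 count and Col1a1 12 to 31, but Pdgfra had 504 to 1537 and rose 1.63-fold in MRC+L (adjusted p = 0.0171) and 1.75-fold in MRC (adjusted p = 0.0107). The fibroblast sum was 68.0 to 77.4 CPM in MRC+L, 70.0 to 87.4 in MRC and 29.6 to 60.0 in PBS. Of 3 endothelial markers Cdh5 had 51 to 138 counts and was not called, and Pecam1 had 2 to 15 and rose 4.18-fold in MRC+L (adjusted p = 0.0154) and 3.66-fold in MRC (adjusted p = 0.0298). The endothelial sum was 3.52 to 4.73 CPM in MRC+L, 4.23 to 5.54 in MRC and 3.25 to 7.47 in PBS. Of 6 leukocyte markers Cd14 alone had at least 10 counts in every library (Ptprc 0 to 3, Cd3e 0), and their sum was 15.3 to 18.9 CPM in MRC+L, 16.8 to 21.1 in MRC and 19.0 to 31.8 in PBS. The part of these markers in the results was not tested.

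Exposure to the particles was accompanied by higher transcript levels of metallothioneins, Mtf1, the exporters Slc30a1, Slc30a5 and Slc30a7, and the importers Slc39a6 and Slc39a14. In MRC+L against PBS 8 of the 10 genes rose and 1, Slc39a1, fell, where 46.2% of all genes tested were called, 21.8% higher and 24.5% lower. In MRC against PBS 8 rose and the same gene fell, where 37.6% of all genes were called, 17.8% higher and 19.8% lower. These comparisons share the PBS libraries. The 10 genes were chosen with earlier results of these data known, so their counts beside those of all genes are a description and no test. Of the 9 other zinc genes tested, 5 rose and 2 fell in MRC+L, and 4 rose and 3 fell in MRC. The libraries of the 2 groups did not overlap for 9 of the 10 genes in either comparison, against 56.3% of all genes for MRC+L and 48.3% for MRC. The median log2 fold change of the 10 genes was 0.79 in MRC+L and 0.67 in MRC, and the median over all genes was -0.03 in both. Without PBS replicate 2 the counts were again 8 higher and 1 lower in each comparison, with medians of 0.68 in MRC+L and 0.56 in MRC, where 55.7% of all genes were called in MRC+L and 50.6% in MRC. In the fits to the 6 libraries of each comparison, 7 were called higher and 1 lower in MRC+L (37.3% of all genes) and 6 higher and 0 lower in MRC (28.6%). With limma voom, which weights each library by its quality, 8 were higher and 1 lower in MRC+L (73.3%) and 9 higher and 1 lower in MRC (65.9%). With each library's trend on gene length removed, 7 were higher and 1 lower in MRC+L (51.4% of all genes), and 7 higher and 0 lower in MRC (44.9%). In bulk RNA, fewer cells of a type and less RNA per cell cannot be told apart.

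**Figure D1:**
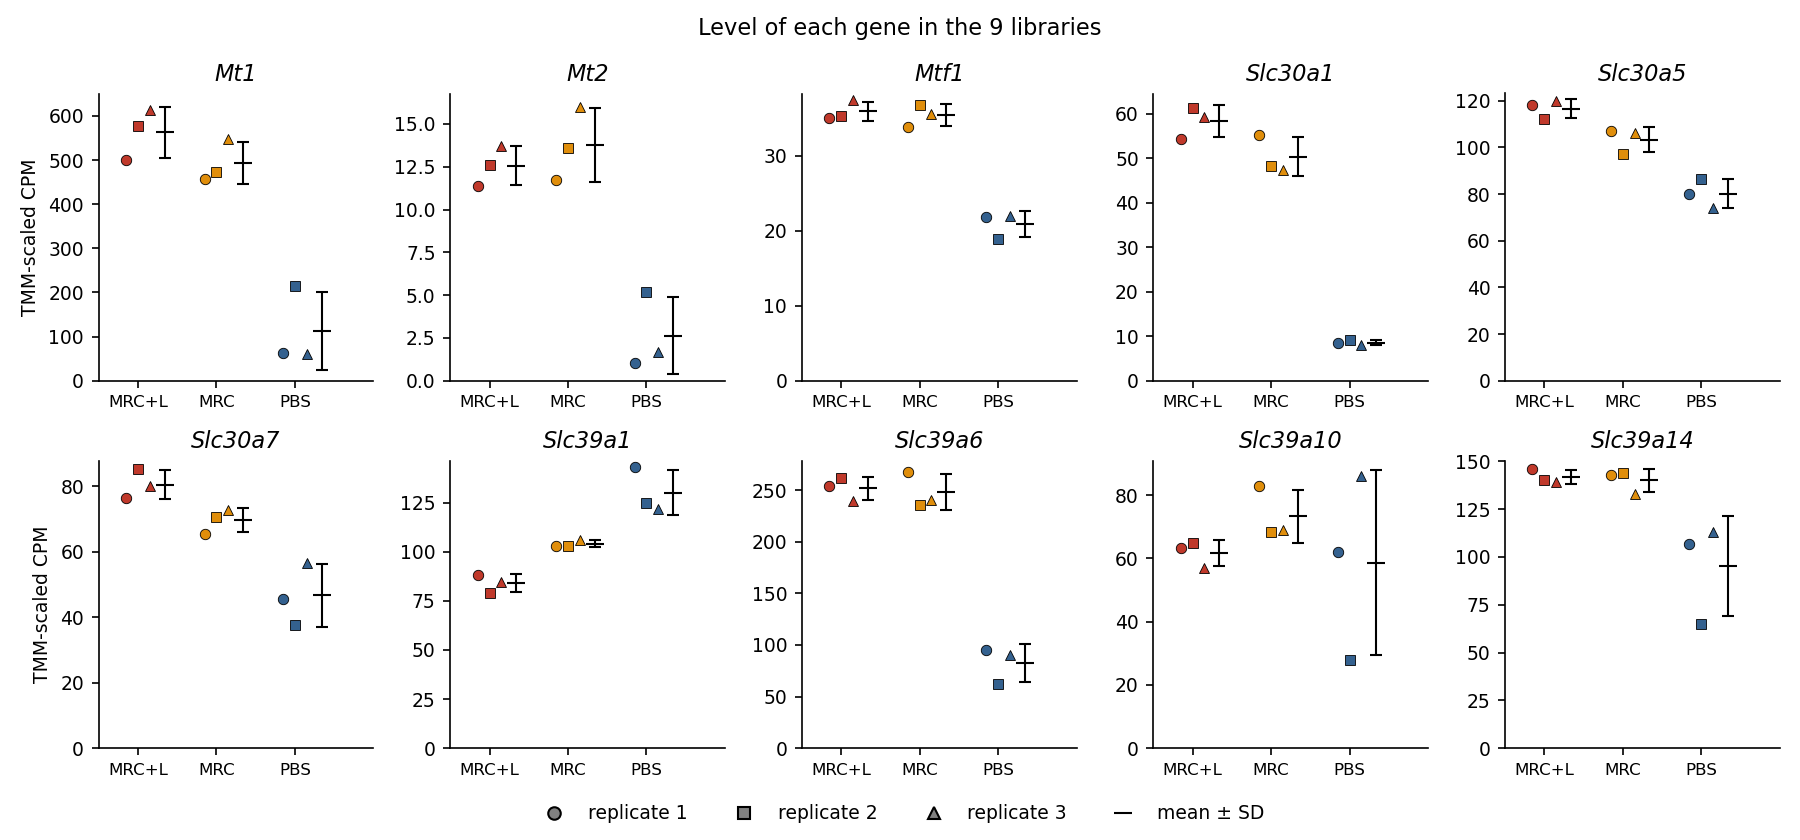
TMM-scaled CPM of each of the 10 genes (y axis, from 0) in MRC+L, MRC and PBS, with 1 symbol per replicate and the mean ± SD of the 3 libraries beside it. Exposed libraries lie above PBS for every gene but Slc39a1, which lies below, and Slc39a10, whose groups overlap; PBS replicate 2 (square) is the highest PBS library for Mt1, Mt2, Slc30a1 and Slc30a5 and the lowest for Mtf1, Slc30a7, Slc39a6, Slc39a10 and Slc39a14.

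Mt1, on chromosome 8 from 94905710 to 94906955 (GRCm39, + strand, 1 exon block of 1246 bases in the gene model), encodes metallothionein 1. It had 499.9, 577 and 613 CPM in the MRC+L libraries, 458, 474 and 547 CPM in the MRC libraries, and 62.6, 215 and 60.9 CPM in the PBS libraries. Every exposed library lay above every PBS library, and PBS replicate 2 lay well above the other PBS libraries. The log2 fold change was 2.32 ± 0.428 in MRC+L (4.99-fold, adjusted p = 0.00171) and 2.13 ± 0.426 in MRC (4.37-fold, adjusted p = 0.00333). Without PBS replicate 2 the change was larger, 3.19 ± 0.110 in MRC+L (9.12-fold) and 2.99 ± 0.109 in MRC (7.95-fold). With the trend on gene length removed from each library it was 2.70 in MRC+L and 2.46 in MRC.

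Mt2, 3 exon blocks of 588 bases in all on chromosome 8 from 94899292 to 94900196, encodes metallothionein 2. It was counted far less often, at 11.4, 12.6 and 13.7 CPM in MRC+L, 11.7, 13.6 and 16.0 CPM in MRC, and 1.04, 5.18 and 1.68 CPM in PBS. As for Mt1, the exposed libraries lay above all PBS libraries and PBS replicate 2 was the highest of its group. The log2 fold change was 2.26 ± 0.437 in MRC+L (4.79-fold, adjusted p = 0.00218) and 2.39 ± 0.437 in MRC (5.24-fold, adjusted p = 0.00197), and without PBS replicate 2 it was 3.22 in MRC+L (9.32-fold) and 3.35 in MRC (10.2-fold). The level of Mt2 is uncertain, because 432 of its exon bases (73.5%) are shared with the antisense gene Gm45774, which had 1 to 24 counts. Counting was without regard to strand, and a read pair that fits both genes was counted for neither. The coding sequences of Mt1 and Mt2 match in 145 of 183 bases (79.2%), with no identical run longer than 20 bases.

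Taken as 1 quantity, Mt1 and Mt2 made up 0.0514%, 0.0586% and 0.0621% of all counts in MRC+L, 0.0464%, 0.0492% and 0.0566% in MRC, and 0.00641%, 0.0213% and 0.00638% in PBS. Exposed libraries did not overlap PBS libraries, and an exact two-sided permutation test gave p = 0.1 for each exposure, the smallest that 3 against 3 libraries allow. MRC+L and MRC overlapped, with a difference of 0.00663 percentage points (exact permutation p = 0.200). The ratio of Mt2 to Mt1 per exon length compares the genes within each library. The size of this ratio is uncertain, because Mt2 shares 73.5% of its exon bases with an antisense gene. Its log2 value averaged -4.40 ± 0.0318 in MRC+L, -4.09 ± 0.108 in MRC and -4.40 ± 0.375 in PBS (SD, n = 3 each). MRC+L lay below MRC in every library, by -0.311 (exact permutation p = 0.1). MRC+L differed from PBS by 0.00245 (exact permutation p = 1.00) and MRC from PBS by 0.314 (exact permutation p = 0.200), with overlapping libraries.

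Mtf1 encodes the factor that senses zinc and acts on the genes above. It had 35.1, 35.3 and 37.4 CPM in MRC+L, 33.9, 36.8 and 35.6 CPM in MRC, and 21.8, 18.9 and 22 CPM in PBS. The exposed groups overlapped each other and lay above all PBS libraries, with a narrow spread in every group. Mtf1 rose by 0.78 ± 0.105 log2 units in MRC+L (1.72-fold, adjusted p = 0.000257) and by 0.76 ± 0.105 in MRC (1.70-fold, adjusted p = 0.000381). The counts measure its transcript and not the activity of the protein, which is known to be set by zinc binding and entry into the nucleus.

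Among the exporters, Slc30a1 had the largest change of the 10 genes with all 9 libraries and the smallest adjusted p. It lies on chromosome 1 from 191638879 to 191645359 (+ strand, 2 exon blocks of 5244 bases) and encodes ZNT1, which carries zinc out across the plasma membrane. Its levels were 54.4, 61.3 and 59.2 CPM in MRC+L, 55.3, 48.3 and 47.4 CPM in MRC, and 8.46, 9.23 and 8.03 CPM in PBS. The PBS libraries lay close together, PBS replicate 2 included, and far below every exposed library. The log2 fold change was 2.76 ± 0.119 in MRC+L (6.79-fold, adjusted p = 8.4e-07) and 2.55 ± 0.118 in MRC (5.87-fold, adjusted p = 1.41e-06). When any 1 of the 9 libraries was left out, it stayed between 2.72 and 2.82 in MRC+L and between 2.48 and 2.60 in MRC. An antisense gene, 1700034H15Rik, shares 8.92% of its exon bases and had 4 to 37 counts.

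Slc30a5 and Slc30a7 encode ZNT5 and ZNT7, which load zinc into the early secretory pathway, where enzymes such as alkaline phosphatases receive it. Slc30a7 had 76.3, 85.3 and 80.0 CPM in MRC+L, 65.5, 70.5 and 72.7 CPM in MRC, and 45.6, 37.6 and 56.7 CPM in PBS. All 3 groups were apart from each other, with MRC+L the highest. It rose by 0.79 ± 0.142 log2 units in MRC+L (1.73-fold, adjusted p = 0.00147) and by 0.58 ± 0.142 in MRC (1.49-fold, adjusted p = 0.00962), and without PBS replicate 2 by 0.65 in MRC+L and 0.44 in MRC. Slc30a5 had 118, 112 and 119.9 CPM in MRC+L, 107, 97.1 and 106 CPM in MRC, and 79.9, 86.6 and 74.1 CPM in PBS, with the groups again in this order and apart. Slc30a5 rose by 0.54 ± 0.0983 in MRC+L (1.45-fold, adjusted p = 0.00157) and by 0.37 ± 0.0982 in MRC (1.29-fold, adjusted p = 0.0145). Its call in MRC was lost without PBS replicate 1 (adjusted p = 0.0528), MRC replicate 1 (0.0608) or MRC replicate 3 (0.0602), and with the trend on gene length removed it was called in neither exposure (0.0875 in MRC+L and 0.267 in MRC). In the fit to 6 libraries the call of Slc30a5 in MRC was also lost.

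The importers did not move as 1 block. Slc39a6 encodes ZIP6, a plasma membrane zinc importer that is known to pair with ZIP10 and was first described as an oestrogen-responsive gene of human breast cancer cells. It had 254, 262 and 240.0 CPM in MRC+L, 268, 236 and 240.2 CPM in MRC, and 95.6, 62.0 and 90.0 CPM in PBS. Exposed libraries overlapped each other and all lay above PBS. The log2 fold change was 1.61 ± 0.157 in MRC+L (3.05-fold, adjusted p = 3.41e-05) and 1.59 ± 0.157 in MRC (3.01-fold, adjusted p = 5.2e-05), and without PBS replicate 2 it was 1.44 in MRC+L and 1.41 in MRC.

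Slc39a10 encodes ZIP10, the partner of ZIP6, and its transcript is reported to be held down by MTF1 when zinc is high. It had 63.4, 64.9 and 57.0 CPM in MRC+L, 83, 68.2 and 68.9 CPM in MRC, and 61.9, 27.9 and 86.0 CPM in PBS. The PBS libraries spanned the exposed ones, with PBS replicate 2 lowest of all 9. The difference from PBS was 0.08 ± 0.307 log2 units in MRC+L (adjusted p = 0.856) and 0.32 ± 0.307 in MRC (adjusted p = 0.435), and neither was called. Without PBS replicate 2 it was -0.26 in MRC+L (adjusted p = 0.0721) and -0.02 in MRC (adjusted p = 0.92). Without PBS replicate 3 it was 0.70 in MRC and called (adjusted p = 0.048). With voom on all 9 libraries it was 0.23 in MRC and called (adjusted p = 0.0429), and -0.02 in MRC+L and not called. No direction for Slc39a10 can thus be read from these libraries.

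Slc39a14 encodes ZIP14, which imports zinc, iron and manganese and is known as an inflammation-induced transporter of liver. It had 146, 140.2 and 139 CPM in MRC+L, 143, 144 and 133 CPM in MRC, and 107, 65.0 and 113 CPM in PBS. Exposed libraries lay above PBS, and PBS replicate 2 was far below the other PBS libraries. The log2 fold change was 0.57 ± 0.178 in MRC+L (1.49-fold, adjusted p = 0.0239) and 0.55 ± 0.178 in MRC (1.47-fold, adjusted p = 0.033). Without PBS replicate 2 it was 0.36 (adjusted p = 0.00087) in MRC+L and 0.34 (adjusted p = 0.00185) in MRC. The call in MRC+L was lost without MRC+L replicate 1 (0.0686), 2 (0.0604) or 3 (0.0537), and the call in MRC without MRC replicate 1 (0.0921), 2 (0.0866) or 3 (0.0612) or MRC+L replicate 1 (0.0519) or 2 (0.0521). Both calls were also lost in the fits to the 6 libraries of each comparison.

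Slc39a1, which encodes ZIP1, a widely expressed importer of the plasma membrane, was the gene that fell. It had 88.4, 79.2 and 84.7 CPM in MRC+L, 103, 103 and 106 CPM in MRC, and 143, 125 and 122 CPM in PBS. The 3 groups were apart, with PBS the highest and MRC+L the lowest. It was 1.55-fold lower in MRC+L (-0.63 ± 0.0982, adjusted p = 0.000617) and 1.25-fold lower in MRC (-0.33 ± 0.0978, adjusted p = 0.0249). The call in MRC+L held in all 18 alternative settings. The call in MRC was lost without PBS replicate 1 (adjusted p = 0.107) or MRC replicate 1 (0.0851), 2 (0.0718) or 3 (0.0646), with the trend on gene length removed (0.0912) and with the replicate number as a block (0.0558).

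**Figure D2:**
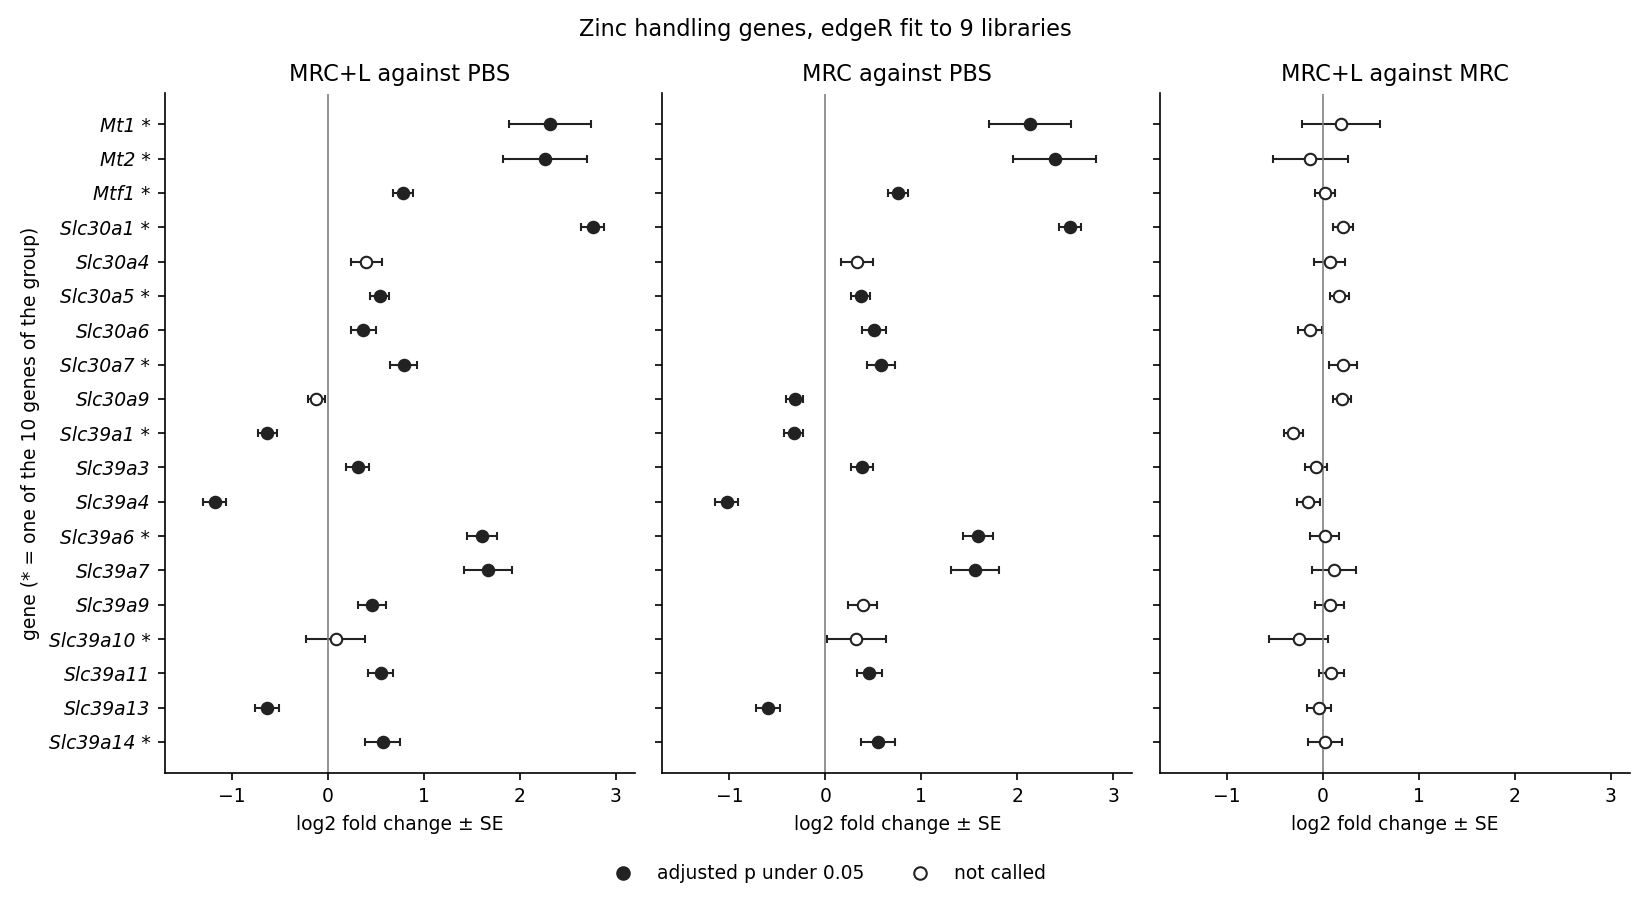
Log2 fold change ± SE (x axis) of each zinc handling gene that was tested, in MRC+L against PBS, MRC against PBS and MRC+L against MRC, from the edgeR fit to 9 libraries; filled points have an adjusted p under 0.05. Mt1, Mt2 and Slc30a1 lie beyond 2 log2 units in both exposures, Slc39a1, Slc39a4, Slc39a13 and Slc30a9 lie below 0 in both, and no point is filled in MRC+L against MRC.

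Light was tested by setting MRC+L against MRC. The edgeR test over 9 libraries called 0 of the 10 genes and 0 of 13439 genes in all (0%), with 573 genes at an unadjusted p under 0.05. DESeq2 called 12 genes higher and 13 lower, limma voom called 262 genes (1.95%), and edgeR on the 6 libraries alone called 654 genes (5.05%). On the 8 libraries other than PBS replicate 2, edgeR called 43 genes higher and 46 lower (0.647%), none of them among the 10. Of the 10 genes, Slc39a1 was the lowest in p, with -0.31 ± 0.0981 log2 units (1.24-fold lower, unadjusted p = 0.0109, adjusted p = 0.988). It was called in the fit to 6 libraries (-0.30 ± 0.0663, adjusted p = 0.0111) and with voom (-0.32, adjusted p = 0.0264). The groups did not overlap for 4 of the 10 genes, against 24.4% of all genes. Slc30a5 and Slc30a7 were higher with light, Slc30a5 by 0.17 ± 0.0979 and Slc30a7 by 0.21 ± 0.141, and Slc39a1 and Slc39a10 were lower, with Slc39a10 at -0.25 ± 0.307. With the trend on gene length removed, Slc30a5 differed by 0.11, Slc30a7 by 0.09, Slc39a1 by -0.28 and Slc39a10 by -0.29, none of them called (0.0298% of all genes were). Slc30a1 differed by 0.21 ± 0.108, Mt1 by 0.19 ± 0.407 and Mt2 by -0.13 ± 0.391, and Mtf1, Slc39a6 and Slc39a14 by 0.02 each, with a sign that changed between settings for these last genes. In edgeR on 6 libraries the difference was 0.22 ± 0.0797 for Slc30a1 (adjusted p = 0.118) and 0.20 ± 0.0758 for Mt1 (adjusted p = 0.136). The fit to 9 libraries estimates a spread shared by all groups, PBS included. The biological coefficient of variation was 0.28 in PBS, 0.0807 in MRC and 0.058 in MRC+L. The 0 calls and the errors from 9 libraries therefore do not measure the spread of MRC+L and MRC alone.

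Levels of different genes were compared per kilobase of exon. The place of Mt2 is uncertain, since 73.5% of its exon bases are shared with an antisense gene. The Mt1 model is 1 block over the whole gene, so any intron bases count in its length. In MRC+L the order was Mt1 (452 ± 46.4 CPM per kb, SD, n = 3), Slc39a6 (61.9 ± 2.73), Slc39a1 (35.6 ± 1.95), Mt2 (21.4 ± 1.98), Slc30a5 (16.0 ± 0.590), Slc39a14 (13.4 ± 0.350), Slc30a1 (11.1 ± 0.677), Slc39a10 (10.1 ± 0.688), Slc30a7 (7.24 ± 0.408) and Mtf1 (4.03 ± 0.143). Neighbours in this order did not overlap, apart from Slc30a1 and Slc39a10. In MRC the order was the same except that Slc39a10 (12.0 ± 1.37) stood before Slc30a1 (9.60 ± 0.827), and Slc39a14 overlapped both Slc30a5 and Slc39a10. In PBS Mt1 (90.6 ± 71.1) overlapped the next gene, Slc39a1 (55.1 ± 4.63), which was followed by Slc39a6 (20.3 ± 4.42). Slc30a5 (11 ± 0.858), Slc39a10, Slc39a14, Mt2 (4.48 ± 3.78) and Slc30a7 (4.19 ± 0.864) came next and each overlapped its neighbour. Mtf1 (2.35 ± 0.196) and Slc30a1 (1.64 ± 0.116) were the lowest and apart. Slc30a1 was thus at rank 7 of the 10 in MRC+L, rank 8 in MRC and rank 10 in PBS, and Slc39a6 exceeded Slc39a1 in the exposed groups and not in PBS.

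**Figure D3:**
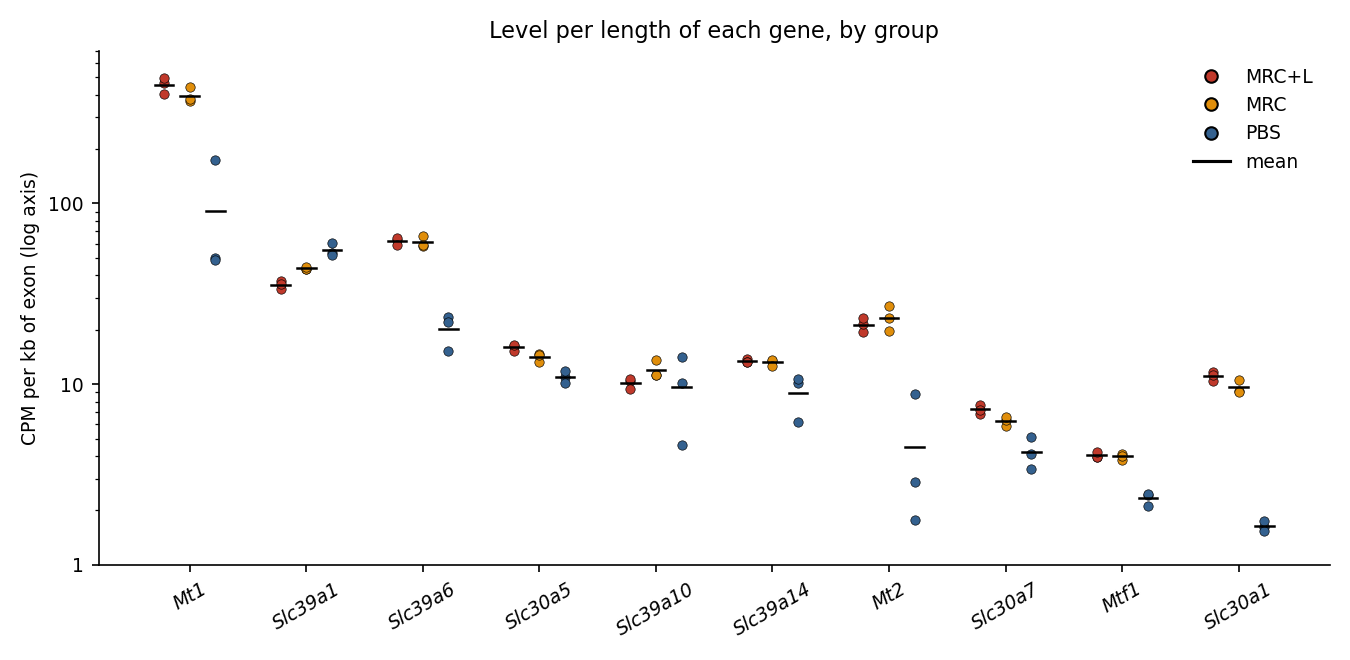
CPM per kb of exon on a log axis for each of the 10 genes, ordered by their mean in PBS, with 1 point per library and a bar at the group mean, MRC+L, MRC and PBS from left to right. Slc30a1, last in PBS at 1.64, reaches 11.1 in MRC+L and 9.60 in MRC, and Mt1 is the highest gene in every group.

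The rest of the zinc list, taken whole by family, held 20 further genes, of which 9 were tested. The other 11, among them the metallothionein genes Mt3 and Mt4 and the exporter gene Slc30a10, had at most 12 counts in any library. In MRC+L against PBS 5 rose (Slc30a6, Slc39a3, Slc39a7, Slc39a9 and Slc39a11) and 2 fell (Slc39a4 and Slc39a13). In MRC against PBS 4 rose (Slc30a6, Slc39a3, Slc39a7 and Slc39a11) and 3 fell (Slc30a9, Slc39a4 and Slc39a13). Over all genes 46.2% were called in MRC+L and 37.6% in MRC. Groups were apart for 8 of the 9 in each comparison, against 56.3% of all genes in MRC+L and 48.3% in MRC, and the median log2 fold change was 0.37 in MRC+L and 0.38 in MRC. Without PBS replicate 2 the counts were 5 higher and 2 lower in MRC+L (55.7% of all genes called) and 5 higher and 3 lower in MRC (50.6%).

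Slc39a4, which encodes ZIP4, the zinc importer of the intestine, had the largest fall of the 16 zinc transporter genes tested. It averaged 32.3 ± 1.58 CPM in MRC+L, 36.0 ± 0.3 CPM in MRC and 73.3 ± 10.4 CPM in PBS (SD, n = 3 each), a log2 fold change of -1.18 in MRC+L (adjusted p = 3.95e-05) and -1.03 in MRC (adjusted p = 0.000126). Slc39a13, which encodes ZIP13 of intracellular vesicles, averaged 75.7 ± 3.09 CPM in MRC+L, 77.7 ± 8.71 CPM in MRC and 118 ± 15.7 CPM in PBS (adjusted p = 0.00224 in MRC+L and 0.00397 in MRC). Both falls were called in all 18 alternative settings. Slc39a7 encodes ZIP7, which releases zinc from the endoplasmic reticulum, and its counts were 111, 73 and 96 in MRC+L, 78, 77 and 118 in MRC, and 43, 20 and 28 in PBS. Its log2 fold change was 1.67 in MRC+L (adjusted p = 0.000473) and 1.56 in MRC (adjusted p = 0.000923), but 80.7% of its exon bases are shared with Gm20427 on the same strand, so its level is uncertain.

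Several smaller changes among these transporters were called with all libraries and lost when some were left out. Mostly the fits that left out 1 library are given here, and some of these calls were also lost in other settings. Slc30a6, the partner of ZNT5 in the secretory pathway, rose by 0.37 log2 units in MRC+L and by 0.51 in MRC. In MRC its call held in all 18 alternative settings. Its call in MRC+L was lost without PBS replicate 3 or any 1 exposed library (highest adjusted p 0.0977). Slc39a3 rose by 0.31 in MRC+L, a call lost without any 1 library except PBS replicate 3 (highest adjusted p 0.128), and by 0.38 in MRC, lost without PBS replicate 1 or any MRC library (highest adjusted p 0.0779). Slc39a11 rose by 0.55 in MRC+L, a call that held in all 18 alternative settings, and by 0.46 in MRC. If MRC replicate 2, MRC replicate 3 or PBS replicate 1 was left out its call in MRC was lost (highest adjusted p 0.0753). Slc39a9 was called in MRC+L (adjusted p = 0.0284) but not without PBS replicate 1 or any MRC+L library (highest adjusted p 0.0755), and among the fits that left out 1 library it was called in MRC where PBS replicate 2 (0.0424) or PBS replicate 3 (0.0107) was left out. The call of Slc39a9 in MRC+L was also lost with the trend on gene length removed (0.0649) and in the fit to 6 libraries (0.0727). Slc30a9 was called lower in MRC and not in MRC+L (adjusted p = 0.0188 in MRC), and not without PBS replicate 1 or MRC replicate 1 (highest adjusted p 0.0798). With the trend on gene length removed it was lower in both exposures, by -0.55 in MRC+L and -0.62 in MRC. Slc30a4, the exporter ZNT4 of vesicles and the SLC30 gene with the most transcript, averaged 505 ± 3.47 CPM in MRC+L, 482 ± 29.9 CPM in MRC and 384 ± 93.6 CPM in PBS. It was not called in either exposure (adjusted p = 0.072 in MRC+L and 0.14 in MRC), and was called in MRC+L without PBS replicate 2 (adjusted p = 0.0367) or PBS replicate 3 (0.0136), and in MRC without PBS replicate 3 (0.0285).

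Summed per kilobase, the 6 tested SLC30 genes had 140.2, 141 and 139.7 CPM per kb in MRC+L, 138, 125 and 132 in MRC, and 106, 80.8 and 113 in PBS, with both exposed groups above PBS. Most of that sum was Slc30a4, which was not called, at 92.1 ± 0.634 CPM per kb in MRC+L, 87.9 ± 5.46 in MRC and 70.0 ± 17.1 in PBS (SD, n = 3 each). The other 5 summed to 47.7, 49.0 and 48.4 CPM per kb in MRC+L, 44.7, 42.8 and 43.6 in MRC, and 30.5, 30 and 29.6 in PBS, with the groups apart. The 10 tested SLC39 genes had 173, 167 and 163 CPM per kb in MRC+L, 181, 176 and 176 in MRC, and 165, 146 and 157 in PBS. Their summed level in MRC lay above both other groups, and MRC+L overlapped PBS.

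Of 6 further genes reported as targets of MTF1, 5 were tested. Gclc, the catalytic subunit of the enzyme that starts glutathione synthesis, averaged 262 ± 11.1 CPM in MRC+L, 216 ± 13.9 CPM in MRC and 74.1 ± 3.87 CPM in PBS (3.54-fold, adjusted p = 1.58e-06 in MRC+L, and 2.92-fold, adjusted p = 4.94e-06 in MRC). Ndrg1, a gene induced by metals and low oxygen, averaged 2561 ± 185 CPM in MRC+L, 2073 ± 66.3 CPM in MRC and 748 ± 51.0 CPM in PBS (3.42-fold, adjusted p = 2.59e-06 in MRC+L, and 2.77-fold, adjusted p = 9.64e-06 in MRC). The selenoprotein gene Selenoh was 2.22-fold lower in MRC+L (adjusted p = 0.00741) and 1.89-fold lower in MRC (adjusted p = 0.0249), the call in MRC being lost without MRC replicate 1 or 2 (highest adjusted p 0.103). Without PBS replicate 2 its log2 fold change was -0.71 in MRC+L and -0.48 in MRC. Selenow and Csrp1, named after their values were seen, were also called lower in MRC+L and not in MRC. The call of Selenow was lost without any 1 exposed library (highest adjusted p 0.123) and that of Csrp1 without any MRC+L library (0.0881). Without PBS replicate 3 both were also called in MRC, Selenow at an adjusted p of 0.0139 and Csrp1 at 0.012. Counts were thus 2 higher and 3 lower of 5 in MRC+L, where 46.2% of all genes were called, and 2 higher and 1 lower in MRC, where 37.6% were. Gclc is also known as a target of NRF2, the factor that responds to oxidants.

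Copper shares metallothionein with zinc, and 8 of 10 genes of copper handling were tested. In each exposure 1 rose and 1 fell, 2 of 8, where 46.2% of all genes were called in MRC+L and 37.6% in MRC. Slc31a2, which encodes the copper transporter CTR2, had 17.6 ± 0.638 CPM in MRC+L, 18.6 ± 2.43 CPM in MRC and 47.1 ± 3.80 CPM in PBS, 2.67-fold lower in MRC+L (adjusted p = 1.92e-05) and 2.52-fold lower in MRC (adjusted p = 3.59e-05). Sco1, which delivers copper to cytochrome c oxidase, was 1.49-fold higher in MRC+L (adjusted p = 0.00174) and 1.52-fold higher in MRC (adjusted p = 0.00167). The other 6 tested copper genes were not called in the main edgeR test over 9 libraries. With PBS replicate 2 left out, 9 copper genes were tested. Of these, 2 were higher and 2 lower in MRC+L (55.7% of all genes called), and 1 higher and 2 lower in MRC (50.6%). The genes added, named after their values were seen, were the importer gene Slc31a1, lower in both exposures (adjusted p = 0.0403 in MRC+L and 0.0233 in MRC), and in MRC+L the exporter gene Atp7a, higher (adjusted p = 0.048), which had 41 counts in PBS replicate 2 against 360 and 483 in the other PBS libraries.

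The 5 protein-coding genes most like Mt1 over the 9 libraries, by Pearson correlation of log2 CPM, were Steap1 (0.997), Manf (0.995), Selenos (0.995), Ddit3 (0.994) and Ftl1 (0.992). For Slc30a1 they were Plk2 (0.999), Dnaja3, Serp1, Dusp1 and Aars (0.998 each). These values describe libraries that share the 3 groups, and for Mt1 also the raised value of PBS replicate 2.

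PBS replicate 2, in which short genes were relatively high, is the library that moved the metallothionein values most. Mt1 had 215 CPM there, against 62.6 and 60.9 CPM in the other PBS libraries, while the level of Slc30a1, at 9.23 CPM against 8.46 and 8.03 CPM, was close to theirs. Of the genes that were highest in that library within PBS, Mt1 and Mt2 have short models (1246 and 588 bases), and Slc30a1 and Slc30a5 longer ones (5244 and 7294 bases). The genes that were lowest in it were Mtf1 (8907 bases), Slc39a14 (10550), Slc30a7 (11116), Slc39a10 (6095) and Slc39a6 (4073), and Slc39a1 (2364) lay between. The sizes of these differences were unlike. Mt2 had 5.18 CPM in PBS replicate 2 against 1.04 and 1.68 CPM in the other PBS libraries. Slc30a5 had 86.6 CPM against 79.9 and 74.1 CPM. The part of gene length in the value of single genes was not tested beyond the removal of the trend. Calls of Mt1, Mt2, Mtf1, Slc30a1, Slc30a7 and Slc39a6 held in both exposures in all 18 alternative settings, those of this library left out and of the length trend removed included.

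**Figure D4:**
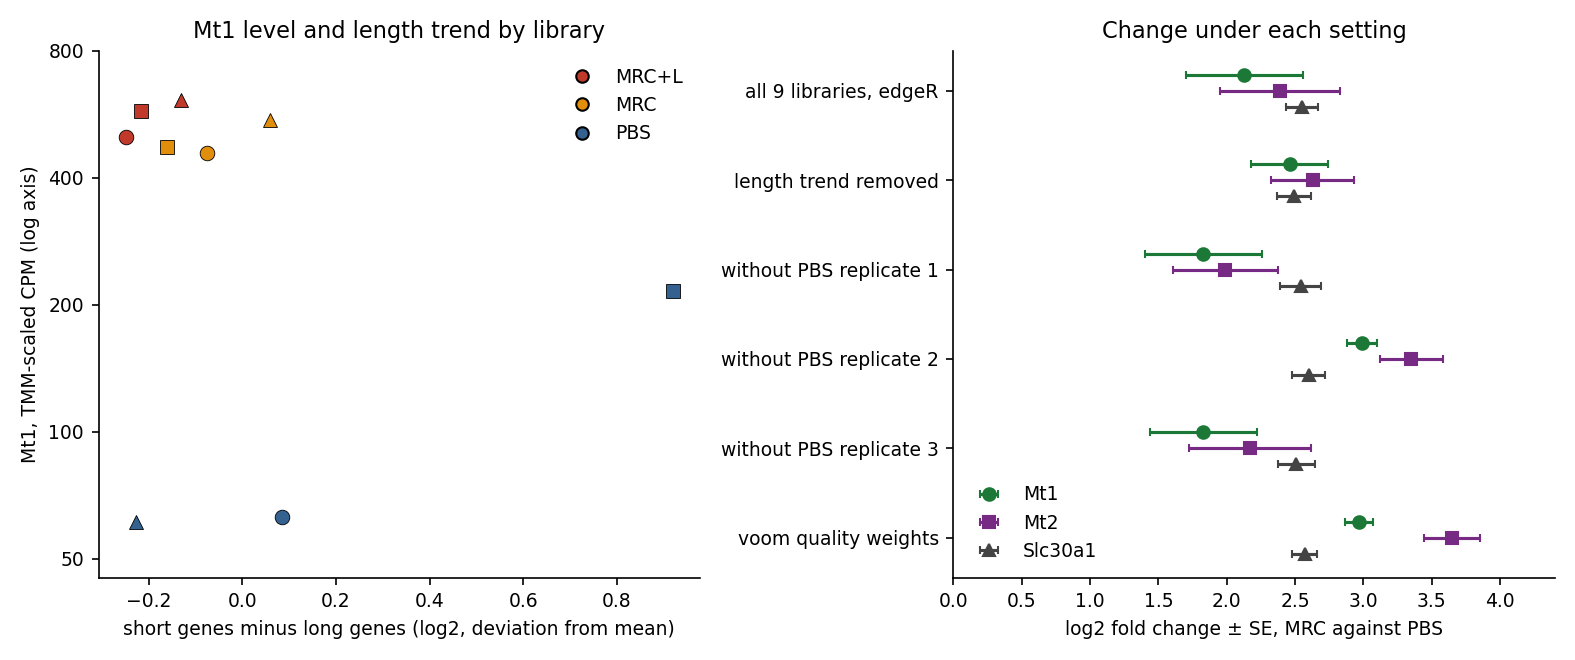
Left, Mt1 in TMM-scaled CPM (log y axis) against the level of short genes minus that of long genes in each library (x axis, log2, as a deviation from the mean over libraries), coloured by group, with circle, square and triangle for replicates 1, 2 and 3. Right, log2 fold change ± SE of Mt1, Mt2 and Slc30a1 in MRC against PBS under 6 settings: PBS replicate 2 lies alone at 0.92 on the left, and without it Mt1 reads 2.99 and Mt2 3.35, while Slc30a1 stays between 2.49 and 2.60.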

How the data were processed

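Total RNA of 4T1 cells was extracted with Trizol and sequenced from TruSeq libraries, per the labels' protocols. For each library the authors deposited raw counts of read pairs per gene. They used featureCounts 2.0.1 on exon features, without strand information, on GRCm39 with Ensembl release 104, per the file headers. The aligner is not given in the sources used here. Symbols came from GENCODE M21 by gene ID (52083 IDs, 94.0%).

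Counts were tested in R 4.3.3 with edgeR 4.0.16 (TMM, minimum count 10, minimum total 15, prior count 0.125, quasi-likelihood test, all 9 libraries, Benjamini-Hochberg adjusted p under 0.05). The standard error is the absolute log2 fold change over the square root of F. Calls were checked with DESeq2 1.42.0, limma 3.58.1 (voom), other scalings, no filter, 6 libraries, the trend on gene length removed, a replicate block and each library left out, and the test was checked on simulated data. Single quantities had exact permutation tests.

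The genes, the lists and the tests were chosen with earlier results of these data known. Named genes are the 10 genes, every tested gene of the zinc list, up to 3 called genes of the copper and MTF1 target lists with the smallest adjusted p in MRC against PBS, and the 5 most correlated genes of Mt1 and of Slc30a1. Outside this rule, Selenow, Csrp1, Slc31a1 and Atp7a were named after their values were seen. Some genes are on opposite strands of the same bases, so their counts are uncertain. Precision is that of 15019765 to 20044166 counts per library.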

Additional observations from a re-analysis of the deposited data

How the results depend on the processing

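With 1 library left out, 0 to 1 of the 10 genes were called lower in MRC against PBS, and of the further zinc genes 2 to 5 were called higher in MRC+L against PBS and 2 to 6 in MRC against PBS. Over all genes in these fits, 13747 to 13870 were tested. In MRC against PBS 1878 to 3569 of them were lower and 1684 to 3393 higher, and in MRC+L against PBS 2226 to 3773 were higher. The count of the 10 genes lower in MRC against PBS was 0 with no filter on low counts, with the length trend removed, with the replicate block, with block and length trend together, and with 6 libraries. Over all genes, 2784 of 28539 were lower with no filter and 3324 of 13439 with the length trend removed. The block gave 2224 of 13439, block and length trend together 2998 of 13439, and 6 libraries 2034 of 12970. The further zinc genes higher in MRC+L against PBS were 3 with upper-quartile factors (2723 of 13439 over all genes) and 2 with 6 libraries (2252 of 13131). In MRC+L against MRC 1 gene, Slc39a1, was called lower with voom (119 of 13439 over all genes) and with 6 libraries (248 of 12955). Fits on 6 libraries use fewer samples and leave the third group out of the estimate of spread. For MRC+L against MRC that group is PBS, with a biological coefficient of variation of 0.28, against 0.0807 in MRC and 0.058 in MRC+L. The cause of the changes between settings was not tested.

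Signs reversed in the following values, none of which was called in the main edgeR test over 9 libraries. Slc39a10 in MRC+L against PBS was -0.017 with voom and -0.019 with the length trend removed, and with 1 library left out it ranged over -0.258 to 0.453, against -0.0169 to 0.703 in MRC against PBS, where the positive end was called. In MRC+L against MRC, with no filter, Mtf1 was -0.00346, Slc39a6 -4.62e-05 and Slc39a14 -0.00265. With the length trend removed Mtf1 was -0.0649 and Slc39a14 -0.0883, and with block and length trend -0.0635 and -0.0888. With 1 library left out, that comparison ranged over -0.0128 to 0.0469 for Mtf1, -0.0126 to 0.079 for Slc39a6 and -0.0133 to 0.0408 for Slc39a14. The share of Mt2 alone differed by -0.000124 percentage points between MRC+L and MRC. The log2 ratio of Mt2 to Mt1 in MRC+L against PBS ranged over -0.206 to 0.157 with 1 library left out.

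The labels do not say whether replicate numbers pair the samples. Deviations of same-numbered libraries from their group means correlated at -0.185 to 0.0385. With 3 libraries per group and PBS replicate 2 apart from the others, these values cannot show whether the samples were paired. With the replicate block, 2630 genes were higher and 2860 lower in MRC+L against PBS, and 2059 higher and 2224 lower in MRC against PBS. Among the 10 genes the block ended the call of Slc39a1 in MRC against PBS (adjusted p = 0.0558) and changed no other call, and among the further zinc genes it ended those of Slc39a3 in both exposures and of Slc30a9 in MRC. Counts of all genes called differed by over 1.5 times with voom, at 9856 genes against 6212 in MRC+L against PBS and 8851 against 5050 in MRC against PBS. Depth limits 11 zinc genes with at most 12 counts, and 3 libraries per group with a wide PBS spread limit small changes.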
